A study of Mus musculus with 6 samples.

Results

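The miR-130/miR-301 and miR-148/miR-152 microRNA (miRNA) families were followed in the lungs of newborn mice that breathed 95% oxygen. Members were the assay wells named mmu-miR-130a, mmu-miR-130b, mmu-miR-301a, mmu-miR-301b, mmu-miR-148a, mmu-miR-148b or mmu-miR-152, or the same with another species prefix, with minor strands marked # or * left out. This gave 8 of 768 wells. Of these, 7 read the mature miRNAs named and lay on the first of 2 assay cards. The other well, rno-miR-148b-5p on the second card, was picked because the strand ending was dropped from names. By its name it reads the opposite strand of the miR-148b hairpin, but the identity of single assays on that card is uncertain, as described below. All 8 were detected well enough to be tested, among 551 miRNA assays tested in all.

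The hyperoxia group was 3 lung samples from pups placed in 95% oxygen before 12 hours of age and kept there for 7 days. The room air group was 3 lung samples from pups of the same age kept in room air. In both groups the dams were exchanged daily between the atmospheres, and the right lung was taken at day 7 after the pulmonary artery had been rinsed with saline. The labels used here do not give strain or sex, and do not say whether the samples came from separate litters, so the spread behind each p-value is that of these samples and may be technical. Each mature miRNA was read by RT-PCR as a threshold cycle (Ct), the PCR cycle of first clear signal: the lower the Ct, the more RNA was present, and at full efficiency 1 cycle is a 2-fold step. Whole lung RNA was measured, in which fewer cells of a type and less RNA per cell cannot be told apart.

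miRNAs guide the Argonaute complex to messenger RNAs through base pairing of the seed, the bases near the 5′ end, and lower the output of those messages. The miR-130/miR-301 family is known for repressing the nuclear receptor PPARγ and for promoting proliferation of pulmonary artery smooth muscle and endothelial cells in pulmonary hypertension. The miR-148/miR-152 family is known for repressing the maintenance DNA methyltransferase Dnmt1 and for restraining innate immune responses.

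Mature sequences were taken from RefSeq (GRCm38.p6), which matched 6 of the 7 members; miR-301b is named only. They are printed because the families are defined by them, with the seed (bases 2 to 8) in capitals.
miR-130a: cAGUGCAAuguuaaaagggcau
miR-130b: cAGUGCAAugaugaaagggcau
miR-301a: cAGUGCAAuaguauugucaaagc
miR-148a: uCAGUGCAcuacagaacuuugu
miR-148b: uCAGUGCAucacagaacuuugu
miR-152: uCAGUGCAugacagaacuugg
The seed was AGUGCAA in miR-130a, miR-130b and miR-301a, and CAGUGCA in miR-148a, miR-148b and miR-152. The families are offset by a single base: the first 7 bases of each miR-130/miR-301 sequence are the 7 bases of the miR-148/miR-152 seed. Outside the seed they part. miR-130a and miR-130b were identical at 20 of 22 positions compared from the 5′ end, and miR-130a and miR-301a at 12 of 22. miR-148a and miR-148b were identical at 20 of 22 positions, and miR-148b and miR-152 at 19 of 21.

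The genes are scattered over the genome. On GRCm38.p6, mature miR-130a lies at chr2:84741116-84741137 on the minus strand, outside the span of any other RefSeq gene. miR-130b lies at chr16:17124071-17124092 on the minus strand, and its hairpin is 257 bases from that of miR-301b on the same strand, both within the span of the RefSeq gene 2610318N02Rik. miR-301a lies at chr11:87113054-87113076 on the plus strand within the span of Ska2, a kinetochore protein gene. miR-148a lies at chr6:51269829-51269850 on the minus strand within the span of Gm38821. miR-148b lies at chr15:103285185-103285206 and miR-152 at chr11:96850439-96850459, both on the plus strand, within the spans of Copz1 and Copz2, paired genes for the zeta subunits of the COPI vesicle coat. Whether these lie in exons or introns was not looked up, and the strands of the spanning genes were not compared.

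Per sample, 307 to 319 miRNAs had a Ct under 35 on the first card, and 268 to 293 had one on the second. On the second card, hyperoxia replicate 2 and room air replicate 1 shared 308 of 309 amplified Ct values, so these values were left out of both samples and second-card assays rest on 2 samples per group. The mean Ct of the 282 miRNAs detected in all samples on the first card was 23.1 ± 0.45 in hyperoxia and 22.4 ± 0.30 in room air (SD, n = 3 each). This later mean in hyperoxia, by 0.76 cycles, had an exact two-sided permutation p of 0.1, the smallest that 3 samples against 3 allow. Changes are given as log2 of hyperoxia over room air with the SE, fitted by limma on each card's mean Ct minus the assay's Ct (log2 relative abundance), with p-values adjusted over all 551 assays (Benjamini-Hochberg). Endothelial miR-126-3p, epithelial miR-200c and smooth muscle miR-145 were well above the card mean in both groups, at 9.96, 5.71 and 7.38 in hyperoxia and 10.6, 5.83 and 8.06 in room air on that log2 scale.

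Of the 8 members, 0 rose and 0 fell past the adjusted threshold of 0.05, against 0% of all assays tested. By unadjusted p under 0.05 it was also 0 of 8, against 9.07% of all assays. The members fell into separate patterns. miR-130a, miR-130b, miR-148a, miR-148b and miR-152 moved with the mean of the card, with log2 fold changes between -0.19 and 0.14. miR-301a and miR-301b had far lower values in hyperoxia, by about 3 units on the log2 scale, with intervals that include 0 and a size that rests on hyperoxia replicate 2.

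**Figure D1:**
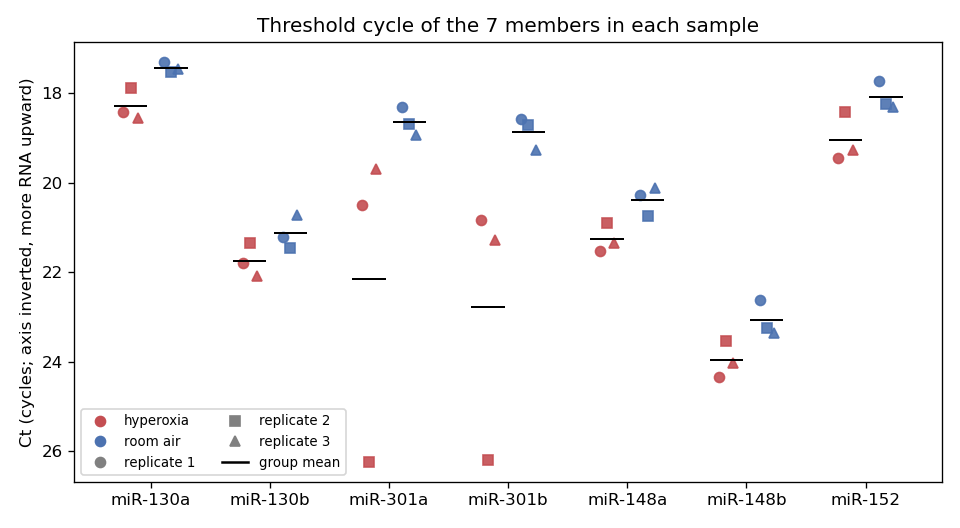
Ct of the 7 first-card members in each sample (vertical axis in cycles, inverted so that more RNA lies higher; hyperoxia left of room air; symbols mark replicates and bars group means). Hyperoxia replicate 2 reads 26.23 and 26.21 for miR-301a and miR-301b, far from every other sample, and is the earliest of the hyperoxia samples for the other 5 members.

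Among the miR-130 pair, miR-130a had the earliest Ct of all members. It was read at 18.43, 17.88 and 18.54 in hyperoxia, against 17.31, 17.52 and 17.46 in room air. Every hyperoxia Ct was later than every room air Ct, by 0.85 cycles on average, close to the 0.76 by which the card as a whole was later. Relative to the card mean its log2 abundance was 4.85 ± 0.17 in hyperoxia and 4.94 ± 0.21 in room air (SD, n = 3 each), which is -0.093 ± 0.24 in log2 fold change (adjusted p = 0.933 by limma). The 95% interval ran from 0.616-fold to 1.43-fold.

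miR-130b, which shares all but 2 bases with miR-130a and lies beside miR-301b, was read at 21.80, 21.35 and 22.08 in hyperoxia, against 21.21, 21.45 and 20.73 in room air. The groups overlapped through hyperoxia replicate 2 and room air replicate 2. Its log2 fold change was 0.14 ± 0.36 (limma adjusted p = 0.933), with an interval of 0.595-fold to 2.05-fold. It was the single first-card member with a positive value, and the sign turned without hyperoxia replicate 1 (-0.0060) or without room air replicate 1 (-0.066). Between the miR-130 pair, the Ct of miR-130a minus that of miR-130b was -3.46 ± 0.086 in hyperoxia and -3.70 ± 0.37 in room air (SD, n = 3 each). No reference enters this difference, and the groups overlapped.

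miR-301a was read at 20.51, 26.23 and 19.69 in hyperoxia, against 18.31, 18.68 and 18.92 in room air. miR-301b was read at 20.83, 26.21 and 21.28 in hyperoxia, against 18.58, 18.71 and 19.27 in room air. For both, every hyperoxia sample was later than every room air sample, and replicate 2 was later by more than 4 cycles than the other hyperoxia samples. The log2 fold change of miR-301a was -2.74 ± 1.96 (limma adjusted p = 0.689), and its 95% interval ran from -7.62 to 2.14. That of miR-301b was -3.16 ± 1.69 (limma adjusted p = 0.68), with an interval from -7.36 to 1.04.

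Without hyperoxia replicate 2, miR-301a was at -0.43 ± 0.32, which is 0.743-fold (limma adjusted p = 0.744). miR-301b was then at -1.17 ± 0.33, which is 0.443-fold with an interval of 0.242-fold to 0.812-fold (unadjusted p = 0.0188 and adjusted p = 0.506 by limma over 542 assays). Neither passed, and 0% of those 542 assays did. An unadjusted limma p under 0.05 was found for 41 of the 542. The mean log2 relative abundance in that setting was 3.40 in hyperoxia and 3.83 in room air for miR-301a, and 2.44 in hyperoxia and 3.61 in room air for miR-301b. In both, the remaining hyperoxia samples still lay below every room air sample, as did 21.8% of the first-card assays in that setting.

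**Figure D2:**
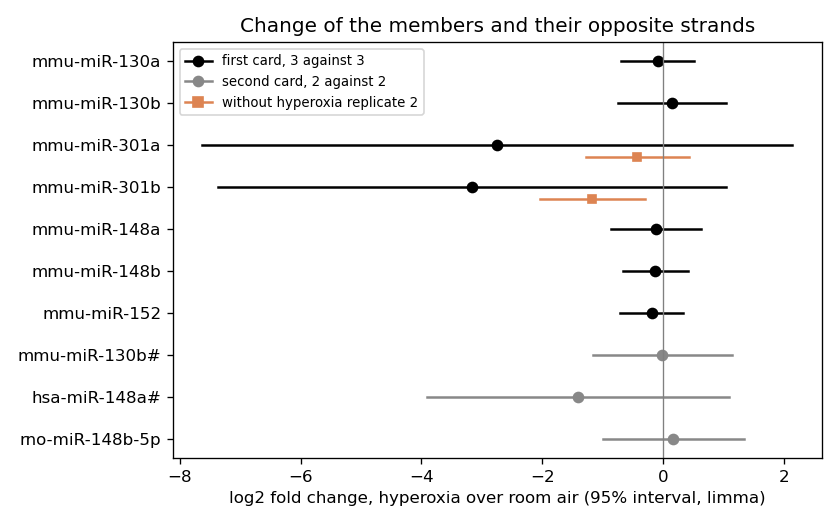
log2 fold change of hyperoxia over room air (horizontal axis) for the 7 first-card members, the opposite strands miR-130b# and miR-148a#, and rno-miR-148b-5p; bars are 95% intervals from limma and squares show the miR-301 pair without hyperoxia replicate 2. The other first-card members sit between -0.19 and 0.14 with short bars, while the miR-301 bars span about 8 to 10 units until that sample is left out.

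The miR-301 wells sit side by side on the first card, in columns 10 and 11 of plate row G. The median SD within groups was 2.12 cycles in row G and 0.42 to 0.719 cycles in the other rows. In columns 1 to 11 of that row, hyperoxia replicate 2 lay over 3 cycles from the median of the other samples in 5 of 11 wells, 2 of them later (the miR-301 pair) and 3 earlier. Hyperoxia replicate 1 did so in 2 wells and the remaining 4 samples in 0. In columns 12 to 24, by contrast, every sample had 4 to 6 of 13 such wells.

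The row G wells at columns 8 and 9 show the earlier readings. miR-297b-5p was read at 19.23 in hyperoxia replicate 2, against 29.2 to 31.4 in the other samples, and miR-298 at 20.0, against 23.0 to 26.7. Across the 19 row G wells detected in all samples, the Ct of hyperoxia replicate 2 correlated with the mean of the other samples at 0.413 (Pearson, across wells, a description), where the other samples had 0.542 to 0.852. Over the 263 other wells of the card the same sample had 0.967. The part of the plate row in the miR-301 values was not tested. The 5 remaining first-card members lie in rows C and D.

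**Figure D3:**
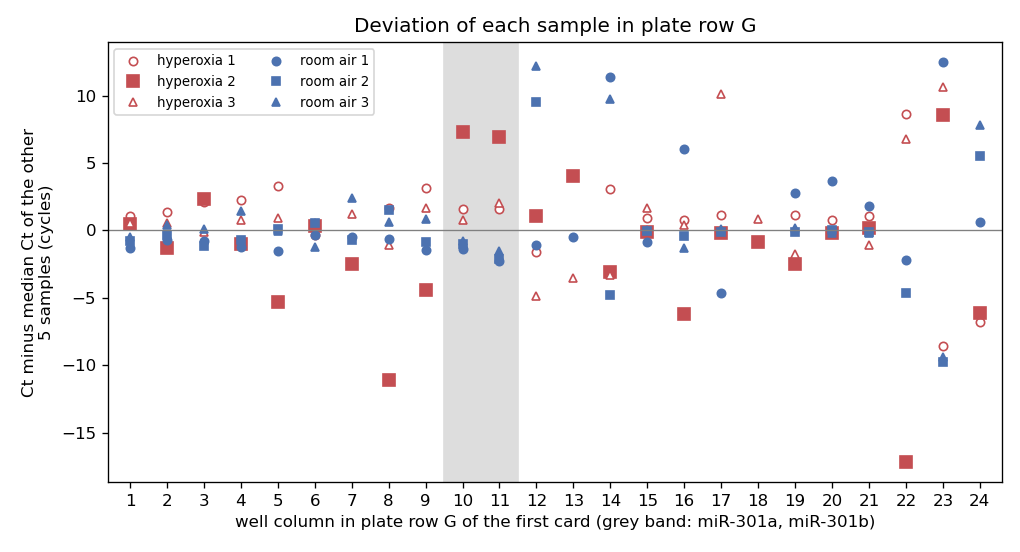
Ct of each sample minus the median Ct of the other samples (vertical axis, cycles) along plate row G (horizontal axis, well column, first card). Hyperoxia replicate 2 stands 7.31 and 6.94 cycles later at the miR-301 wells in the grey band and 11.1 cycles earlier at column 8; right of the band every sample scatters.

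The partners miR-130b and miR-301b lie within the span of the same gene, and their difference within a sample needs no reference. The Ct of miR-130b minus that of miR-301b was 0.96, -4.86 and 0.80 in hyperoxia, against 2.62, 2.74 and 1.46 in room air. All hyperoxia samples were lower, with a mean difference between groups of -3.30 cycles, or -1.39 without replicate 2. For miR-301a the like difference, the Ct of miR-130a minus that of miR-301a, overlapped between groups. Its mean was -3.86 ± 3.92 in hyperoxia and -1.21 ± 0.23 in room air (SD, n = 3 each). These means differed by -2.65 cycles, or by -0.40 without hyperoxia replicate 2. Separation of the groups relative to a miR-130 partner was thus seen for miR-301b and not for miR-301a. The Ct of miR-301a minus that of miR-301b, read in adjoining wells, overlapped between groups. It averaged -0.63 ± 0.85 in hyperoxia and -0.22 ± 0.17 in room air (SD, n = 3 each). These differences were not tested.

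In the miR-148/miR-152 family, miR-148a was read at 21.53, 20.89 and 21.36 in hyperoxia, against 20.28, 20.75 and 20.12 in room air. miR-148b was read at 24.34, 23.53 and 24.04 in hyperoxia, against 22.63, 23.23 and 23.36 in room air. For both, each hyperoxia Ct was later than each room air Ct, by 0.88 and 0.90 cycles on average. Relative to the card the groups overlapped, and the log2 fold changes were -0.12 ± 0.30 for miR-148a and -0.13 ± 0.22 for miR-148b (limma adjusted p of 0.933 and 0.867). Their 95% intervals ran from 0.55-fold to 1.54-fold and from 0.628-fold to 1.32-fold.

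miR-152, the Copz2 member of the family, was among the most even readings of the card. Its Ct was 19.43, 18.42 and 19.27 in hyperoxia, against 17.73, 18.23 and 18.32 in room air. Its log2 relative abundance was 4.03, 4.19 and 4.04 in hyperoxia, against 4.30, 4.25 and 4.28 in room air. All hyperoxia samples lay below all room air samples, by a small step of -0.19 ± 0.21 (0.877-fold, limma adjusted p = 0.796). Of 282 assays read in every sample on that card, 280 had a larger spread within groups than miR-152 and 277 than miR-148b, with SDs of 0.064 and 0.097 on the log2 scale against a median of 0.421. Limma widens so small an SD toward that of other assays, and the SE given is the widened one.

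Differences within the family also need no reference, and they were not tested. The Ct of miR-148b minus that of miR-152 was 4.90, 5.11 and 4.77 in hyperoxia, against 4.90, 5.01 and 5.05 in room air. The Ct of miR-148a minus that of miR-148b averaged -2.71 ± 0.089 in hyperoxia and -2.69 ± 0.48 in room air (SD, n = 3 each). Both pairs overlapped between groups. The group means differed by -0.054 and -0.018 cycles, or by -0.15 and -0.052 without hyperoxia replicate 2, and those of miR-148a minus miR-152 by -0.072 with that sample and -0.20 without it. Across the families, the Ct of miR-130a minus that of miR-152 averaged -0.76 ± 0.24 in hyperoxia and -0.66 ± 0.22 in room air, again with overlap. Since assays differ in efficiency, these differences compare samples and are not ratios of abundance between miRNAs.

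The first-card members that lay lower in hyperoxia in every sample were miR-152, miR-301a and miR-301b, 3 of 7, against 16.2% of the 302 first-card assays tested. Outside row G, where wells scattered most, it was 1 of 5 (miR-152). Of the 7, 0 lay higher in every hyperoxia sample, against 6.29% of those assays. The median log2 fold change was -0.13 over the 7 and -0.12 over the 5 outside row G, where all 551 assays had -0.12 and the 302 first-card assays -0.13. The 5 lay in the middle of the distribution, where between 141 and 205 of the 302 first-card assays had a lower value. miR-301a and miR-301b had only 4 and 3 assays below them.

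**Figure D4:**
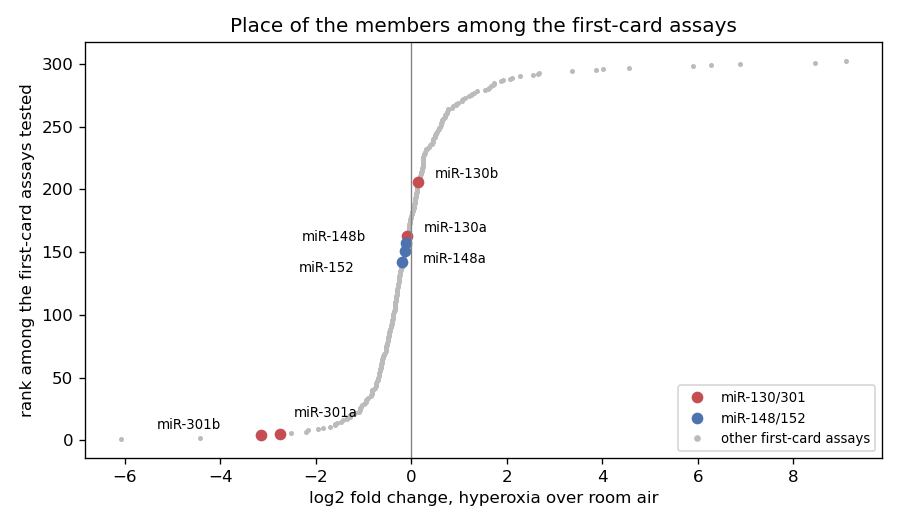
First-card assays tested, ranked by log2 fold change of hyperoxia over room air (horizontal axis, fold change; vertical axis, rank). miR-130a, miR-130b, miR-148a, miR-148b and miR-152 lie in the steep middle between -0.19 and 0.14, and miR-301a (-2.74) and miR-301b (-3.16) near the lower end.

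By rank of mean Ct among those 282 assays (rank 1 is the earliest), miR-130a stood at 41 in hyperoxia and 39 in room air. miR-152 stood at 55 and 46, miR-148a at 109 and 108, miR-130b at 115 and 120, and miR-148b at 163 and 161, in hyperoxia and room air in that order. These places were nearly the same in both groups. miR-301a stood at 125 in hyperoxia and 64 in room air, and miR-301b at 139 and 70. In room air the miR-301 pair thus came after miR-152, and their Ct ranges there, 18.31 to 18.92 and 18.58 to 19.27, overlapped.

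The values also depend on what they are set against. The mean Ct of 5 small RNA controls was 0.20 cycles later in hyperoxia (16.96 ± 0.56 in hyperoxia and 16.76 ± 0.34 in room air, SD, n = 3 each, exact permutation p = 0.7). The controls differed among themselves. U6 was later in hyperoxia by 0.43 cycles (row A wells) and 1.06 cycles (row B wells), and Y1 by 0.41. The differences were 0.038 for snoRNA202, -0.078 for snoRNA135 and -0.13 for U87. With U6 alone as reference, 6 of 7 members were negative, with a median of -0.15. Relative to the mean of the 5 controls all 7 members were negative, with a median of -0.70, or -0.68 for the 5 outside row G. The median of all assays of both cards was then -0.62. Groups did not overlap for 4 of 7 members, against 35.8% of first-card assays. Without any reference 6 of 7 members were later in every hyperoxia sample, all but miR-130b, against 45.0% of first-card assays. The median was then -0.90 for the members and -0.62 for all assays of both cards. The sign of miR-130b thus turned negative with the control RNAs or with no reference, while miR-301a and miR-301b were the lowest members under each of the 6 references plotted. The medians over both cards are not a like background, since all 7 members are on the first card. Card mean, control RNAs or no reference move every first-card assay read in all samples by the same amount. On the card mean the median was -0.13 for the 302 first-card assays and for the 7 members.

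**Figure D5:**
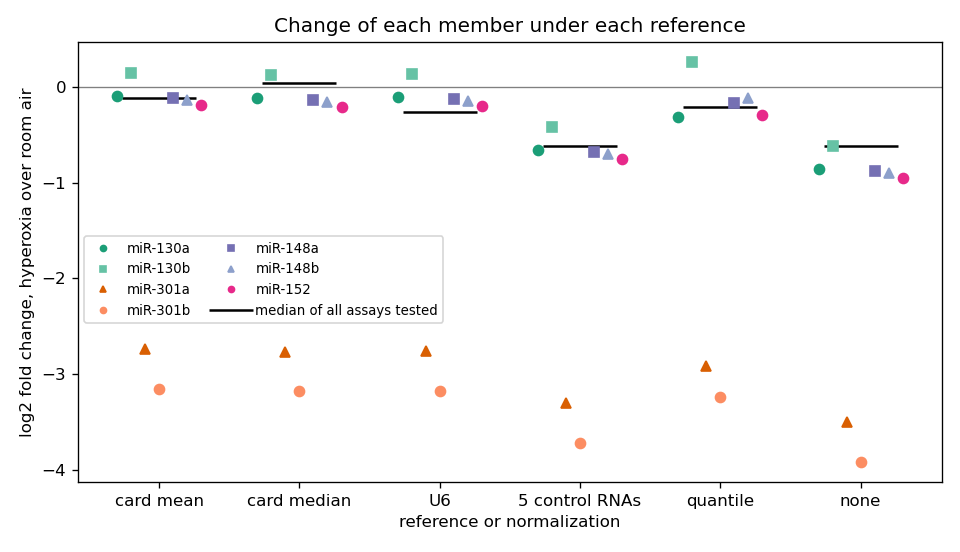
log2 fold change of hyperoxia over room air (vertical axis) for each member under 6 references or normalizations (horizontal axis). Black bars are the median of all assays tested on both cards. The 5 members outside row G lie closer to the black bars than the miR-301 pair, which is lowest throughout. They run from -0.95 to -0.62 with no reference, where the bar is at -0.62. With the card median they run from -0.21 to 0.12, where the bar is at 0.04.

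The opposite strands of these hairpins were read on the second card, where 104 of 104 assay names that carry an assay number match the number listed 3 wells later, so the identity of single assays there is uncertain. rno-miR-148b-5p had Ct values of 25.81 and 26.41 in hyperoxia, against 26.35 and 25.84 in room air. These overlapped, at a log2 fold change of 0.17 ± 0.40 (2 samples per group, limma adjusted p = 0.932). miR-130b# had 25.02 and 25.55 in hyperoxia, against 25.37 and 24.80 in room air, at -0.018 ± 0.40 (limma adjusted p = 0.988), and here too the groups overlapped.

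The human-named miR-148a# assay had 28.14 and 30.34 in hyperoxia, against 27.81 and 27.48 in room air. Its log2 fold change was -1.41 ± 0.86 (2 samples per group, limma adjusted p = 0.689), with both hyperoxia samples lower than both room air samples, as in 16.9% of second-card assays. Hyperoxia replicate 3 was the lowest, at -5.09 on the log2 relative scale, where replicate 1 had -2.93. The guide strand miR-148a, read on the first card, was at -0.12, and the difference between the strands was not tested.

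In RefSeq, 7 mouse mature miRNAs carry the seed AGUGCAA and 3 carry CAGUGCA. Of those that are not members, miR-721 had an assay by name, on the second card, where the identity of single assays is uncertain.
miR-721: cAGUGCAAuuaaaagggggaa
It is shown because it repeats the miR-130/miR-301 seed in bases 2 to 8. Its Ct was 10.77 and 13.74 in hyperoxia, against 13.79 and 11.84 in room air, at 0.75 ± 1.32 (2 samples per group, limma adjusted p = 0.877), with groups that overlapped and samples of a group about 2 to 3 cycles apart.

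Likeness over the 6 samples was taken as Pearson's r of log2 relative abundance among the same assays, as a description, since with 6 samples that share their card mean between 9 and 26 of 278 to 281 assays exceeded 0.8 for each member or family mean. miR-301a and miR-301b were each other's closest assay, at 0.98, and next came miR-375 (0.962) for miR-301a and miR-449a (0.958) for miR-301b. For miR-130a the closest were miR-99b, miR-582-5p and miR-652 (0.957 to 0.963), and for miR-130b miR-382, miR-181c and let-7i (0.959 to 0.972). For miR-148a they were miR-205, miR-376b and miR-127 (0.873 to 0.891), and for miR-148b miR-30e, miR-351 and miR-872 (0.943 to 0.979). miR-152 was closest to miR-335-3p, from the imprinted Mest gene, at 0.988, then miR-467a and miR-19b. For the mean of the miR-148/miR-152 family the closest were miR-490, miR-335-5p and miR-376b (0.948 to 0.966), and the most opposed were miR-222 (-0.937), miR-146b (-0.876) and miR-511 (-0.845). The mean of the miR-130/miR-301 family was closest to miR-375, miR-34b-3p and miR-449a (0.93 to 0.964). That family mean was -0.30 in hyperoxia replicate 2, against 2.91 to 3.50 in the other samples. The low value came with the miR-301 wells, since the mean of miR-130a and miR-130b differed by 0.025 between groups. Most opposed to the family mean were miR-297b-5p (-0.99), miR-25 (-0.979) and miR-293 (-0.915), of which miR-297b-5p and miR-293 are in row G as well. Spearman's rank correlations were often much weaker. They were -0.086 for miR-25, -0.71 for miR-297b-5p and -0.60 for miR-293 with the miR-130/miR-301 mean, 0.314 for miR-375 with miR-301a, and 0.314 for miR-127 with miR-148a, so these likenesses rest on the size of extreme samples more than on the order of all 6. For miR-301a with miR-301b the rank correlation was 0.943, and for miR-152 with miR-335-3p it was 1.

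Other miRNAs known for acting on DNA methyltransferases, or cited with miR-148/miR-152, were read by 6 assays, of which 0 passed, 3 were positive and 3 negative, with a median of 0.28 against -0.12 for all assays. The miR-29 family, which represses Dnmt3a and Dnmt3b, held the positive values: miR-29a 0.85 ± 0.33, miR-29b 1.25 ± 0.40 and miR-29c 0.98 ± 0.25 (limma adjusted p of 0.518, 0.446 and 0.333). Set against the control RNAs these values were 0.28, 0.68 and 0.41, and with no reference 0.086, 0.49 and 0.22. The negative values were those of miR-342-3p at -0.61 ± 0.43 and of miR-143 at -0.29 ± 0.24 (first card) and -0.43 ± 0.59 (second card). The miR-148/miR-152 members, at -0.12 to -0.19, lay between these.

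miRNAs described with miR-130/miR-301 in the pulmonary vascular network were read by 13 assays, of which 0 passed, 6 were positive and 7 negative, with a median of -0.19. Values closest to 0 were those of miR-204, a miRNA lost from pulmonary artery smooth muscle in pulmonary hypertension, at 0.0013 ± 0.22, and miR-20a at -0.19 ± 0.30. The other negative first-card values were miR-503 at -1.60 ± 0.32, the smooth muscle miR-145 at -0.68 ± 0.23, miR-17 at -0.50 ± 0.30, miR-27b at -0.35 ± 0.45 and the low-oxygen marker miR-210 at -0.26 ± 0.28. The other positive values were miR-21 at 1.61 ± 0.33, miR-206 at 1.31 ± 0.61, miR-29b as above and miR-27a at 0.25 ± 0.34. The assays of miR-322, not counted in those sentences, disagreed, at 6.87 ± 1.61 in well P24 (first card) and -0.41 ± 0.38 (second card). Limma adjusted p for the 13 ran from 0.314 to 0.997.

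Markers of cell types did not pass either. The medians were -0.38 over 2 endothelial assays, -0.071 over 8 epithelial, -0.027 over 6 smooth muscle and mesenchymal, 0.74 over 6 leukocyte, 0.24 over 3 erythroid and -0.58 over 5 striated muscle assays, and the liver miRNA miR-122 was at -0.69 ± 1.33. The lists were mixed within. The lymphocyte miR-150 was at -1.09 ± 0.27 among leukocyte assays that reached 0.94, miR-144 at -1.29 ± 0.32 among erythroid assays that reached 0.71, and miR-206 at 1.31 ± 0.61 among striated muscle assays that went down to -1.06. The groups did not overlap for miR-150, miR-144, miR-206, the smooth muscle miR-145 (-0.68) or the cardiac miR-208b (-1.06). Such separation was common: 16.2% of first-card assays were lower without overlap and 6.29% were higher. Among second-card assays, 16.9% were lower and 31 of 249 were higher. miR-144 and miR-206 were second-card wells, whose identity is uncertain, and each compared 2 samples against 2. In these lists 0 assays passed the limma adjusted threshold, and their part in the members' values was not tested.

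The authors' deposited table gives a fold of hyperoxia over room air with no test. In the authors' deposited table the fold was 0.748 for miR-130a, 0.881 for miR-130b, 0.735 for miR-148a, 0.726 for miR-148b and 0.70 for miR-152. These folds are set against the authors' own reference and not the card mean. Against the card mean the folds were 0.937, 1.10, 0.922, 0.911 and 0.877 in the same order. The authors' deposited table has 0.119 for miR-301a and 0.0893 for miR-301b, in which hyperoxia replicate 2 is averaged with the others.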

How the data were processed

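Per the labels' protocols, RNA was reverse transcribed with Megaplex primer pools A and B and pre-amplified for 12 cycles. The authors deposited Ct values, a score per well with no normalization, in 1 table of 768 wells; the instrument and software are not given in the sources used here. The authors also deposited a fold (a ratio of hyperoxia over room air) per assay.

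From the Ct values, blanks and values at or above 35 were set missing (40 marks no amplification). Each card's reference was the mean Ct of the miRNAs detected in all samples used (282 on the first card, 249 on the second). Assays detected in at least 2 samples per group were fitted with limma 3.58.1 in R 4.3.3 (lmFit, eBayes, two-sided, prior of 1.62 degrees of freedom); single values used an exact permutation test. The second-card values shared by hyperoxia replicate 2 and room air replicate 1 were left out. The fit was tested on simulated data with large changes and little spread, so that test does not cover small changes or the scatter of row G. Precision is limited by how few samples there are.

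The members and lists (DNA methyltransferase, pulmonary vascular, endothelial, epithelial, smooth muscle and mesenchymal, leukocyte, erythroid, hepatic, striated muscle) were chosen with earlier results of these data known. The named miRNAs were the members, their opposite strands, other assays with a member's seed, the 3 assays closest to each member or family mean (and the 3 most opposed to a family mean), and the first 2 lists. Alternatives covered the reference, Ct ceiling, detection filter, shared values, cards, row G, prior, replicate block and each sample left out.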

Additional observations from a re-analysis of the deposited data

How the results depend on the processing

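In all 24 alternatives 0 members passed. The count over all assays was 1 with a Ct ceiling of 32, with the first card alone, with row G left out and with limma's trend (miR-34a each time), 1 with a Ct of 40 kept as a measurement (miR-692), and 0 to 1 with 1 sample left out (miR-322 without hyperoxia replicate 1, where its first-card assay was at 8.66). miR-130a, miR-148b, miR-152, miR-301a and miR-301b kept a negative sign in every alternative run; row G left out gives the miR-301 pair no value. The miR-301 pair ran from -4.09 to -0.43 (miR-301a) and from -4.31 to -1.17 (miR-301b) with 1 sample left out. miR-130b turned to -0.42 with the control RNAs, -0.62 with no normalization and -0.23 with a Ct of 40 kept, and ran from -0.066 to 0.45 with 1 sample left out; miR-148a ran from -0.24 (without room air replicate 2) to 0.12 (without room air replicate 3).

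Second-card assays also changed sign. miR-148b-5p was at -0.11 with U6 as reference, -0.26 with the control RNAs and -0.017 with no normalization. miR-130b# was at 0.36 with the median, 0.64 with the first-card reference, 0.053 with a Ct of 40 kept, 0.054 with the shared values in room air and 0.037 without row G. miR-721 was at -0.58 with quantile normalization. With the first-card reference, second-card miR-143 was at 0.23 and miR-322 at 0.25. Among the listed miRNAs, miR-204 was at -0.0205 (median), -0.013 (U6), -0.56 (control RNAs), -0.072 (quantile), -0.76 (none) and -0.37 (Ct of 40 kept), and miR-27a at -0.32 (control RNAs), -0.51 (none) and -0.12 (Ct of 40 kept). With 1 sample left out miR-204 ran from -0.068 to 0.097, miR-27a from -0.062 to 0.40 and miR-20a from -0.35 to 0.028. The cause was not tested. The alternatives on opposite strands, miR-721 and the lists were added after the data were seen.

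Samples with the same replicate number were not alike: their deviations from the group mean correlated at -0.34, -0.23 and -0.18 over first-card assays. With 3 samples per group, this cannot tell whether the samples were paired. With the number as a replicate block, 0 assays passed and miR-301b was at -3.16 ± 1.55 (limma adjusted p = 0.589). Leaving out a sample other than hyperoxia 2 or room air 1 leaves too few second-card values to test.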
